A study of Mus musculus with 4 samples.

Results

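The protein tyrosine phosphatases described here are the genes whose symbols begin with Ptpr (receptor) or Ptpn (non-receptor). They were taken from the protein-coding genes of the count table by symbol, leaving out Ptprb, which marks vessels, and Ptprc, which marks immune cells. This gave 35 of the 28193 genes in the table, 18 receptor and 17 non-receptor members. One of the receptor symbols, Ptprcap, names a protein that binds the Ptprc phosphatase and is not itself a phosphatase. Ptprv is annotated as a polymorphic pseudogene and did not enter, and Ptprg was not analysed here.

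The RNA was bound to ribosomes of neurons in the CA1 area of the dorsal hippocampus of male C57BL/6J mice aged 3 to 5 months. Neurons active during a first sleep deprivation were tagged through viral vectors, one with a drug-inducible Cre under the c-Fos promoter and one with a Cre-dependent HA-tagged ribosomal protein, Rpl22; the labels give the genotype as cFos-Cre:Ribotag. Every mouse of both groups was sleep deprived for 5 h on day 0 by gentle handling and received 4-hydroxytamoxifen at zeitgeber time (ZT) 2, so the control group carries an earlier sleep loss as well. On day 7 the sleep-deprived (SD) mice lost sleep for 5 h again, the non-sleep-deprived (NSD) mice did not, and tissue was taken at ZT 5. Each library pools the CA1 tissue of 5 mice, and the 10 mice of a group thus make n = 2, so all spreads are between pools. The labels assign 1 NSD and 1 SD library to batch 1 and 1 of each to batch 2.

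Protein tyrosine phosphatases remove the phosphate that tyrosine kinases place on proteins. Receptor members span the plasma membrane and many bind adhesion molecules or proteoglycans outside the cell, and at synapses the type IIa receptors act as presynaptic organisers. Non-receptor members work in the cytosol, on the endoplasmic reticulum or at membranes, where they set the strength of growth factor, insulin and MAP kinase signals.

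The catalytic pocket of the family is built around a short signature, a histidine and a cysteine, then 5 residues and an arginine, in which the cysteine attacks the phosphate. The coding sequence of the signature is shown for members whose results are described below, because it is the part of the gene that the family has in common. Each line is 24 bases from the GENCODE M39 canonical transcript on GRCm39, 5′ to 3′ on the coding strand, with the cysteine and arginine codons in capitals. In all lines but that of Ptpn1 the bases span the junction of 2 exons, so the genomic interval includes an intron.
Ptpn1 (chr2:167816127-167816150, plus strand): cacTGCagcgccggcatcgggAGG
Ptpn4 (chr1:119595364-119603286, minus strand): catTGCagtgctggaattggaAGG
Ptpn11 (chr5:121281677-121282600, minus strand): cacTGCagcgctgggattggcCGG
Ptpn5 (chr7:46729092-46729202, minus strand): cacTGCagtgcagggattgggAGA
Ptprz1 (chr6:23033498-23035059, plus strand): cacTGCagtgctggcgtggggAGA
Ptprf, first copy (chr4:118069431-118069531, minus strand): catTGCagtgcgggtgtggggCGC
Ptprf, second copy (chr4:118067686-118067821, minus strand): cacTGCagtgctggtgtgggcCGC
Ptprt, first copy (chr2:161397454-161400747, minus strand): catTGCagtgctggagccgggAGG
Ptprt, second copy (chr2:161372477-161375408, minus strand): cacTGCctaaatgggggaggcCGC
Ptprn (chr1:75224795-75225377, minus strand): cacTGCagtgacggtgcagggAGG
Ptprn2 (chr12:117217269-117219181, plus strand): catTGCagtgacggcgccggcAGG

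The signature was found 2 times in 9 receptor members, Ptpra, Ptprd, Ptpre, Ptprf, Ptprk, Ptprm, Ptprs, Ptprt and Ptpru, which have tandem phosphatase domains, and 0 times in Ptprcap. The pattern also matched 2 times in Ptpn9 and Ptpn13, which are known to have a single phosphatase domain, and 1 time in each of the other members. Leaving out Ptpn2, the fourth codon was gct in 19 of 44 matches, another alanine codon (gca, gcc or gcg) in 17 and aga in the first match of Ptpn9. It was gac in Ptprn and Ptprn2, receptors of dense core vesicles that are known to lack ordinary phosphatase activity, tct in Ptpn23, and aat or aac in the second copies of the type IIb receptors Ptprk, Ptprm, Ptprt and Ptpru.

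Libraries held 153511705 to 195910235 estimated counts, so counting noise matters only for members near the bottom of the range and n = 2 limits the precision. All 35 members passed the filter of more than 5 counts in every library, and 29 of them, 16 receptor and 13 non-receptor, stood above 1 CPM (a count as a share of the library total, on the usual CPM scale, after edgeR's TMM scaling) in every library. Together the members took 0.386% and 0.410% of all counts in NSD and 0.411% and 0.409% in SD. The 9 CA1 pyramidal markers summed to 6160 to 6768 CPM over the libraries, of which Camk2a alone held 4090 to 4379. Slc17a7 was the next highest. Markers of other cells were present too. The 7 oligodendrocyte markers summed to 1547 to 1869 CPM, the 8 GABAergic interneuron markers to 775 to 883 and the 6 dentate granule markers to 178 to 196. The share of RNA from other cells was not tested. Of the 9 CA1 pyramidal markers, edgeR called none without the batch term. Wfs1, Fibcd1, Man1a and Neurod6 were called lower in SD by edgeR with the batch number as a block (adjusted p = 0.0025, 0.0029, 0.0019 and 0.0025) and by DESeq2 without it (adjusted p = 0.021, 0.014, 0.0063 and 0.032), beside 3.29% of protein-coding genes called lower by the first and 1.79% by the second. The part of these markers in the members' values was not tested.

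Per length, receptors of dense core vesicles and of adhesion led the family. Levels are CPM per kilobase of merged exons unless another length is named. Ptprn, which sits in secretory vesicle membranes, stood at 83.2 and 90.4 CPM per kilobase in NSD and 77.2 and 81.8 in SD, which was 21.3% ± 0.389 (standard deviation over libraries, n = 2) of the family total in NSD and 18.5% ± 0.289 in SD. Ptprn2, its close relative, followed at 43.4 and 47.3 in NSD and 43.6 and 50.3 in SD. Ptprt, a homophilic adhesion receptor of neurons, took 8.70% ± 0.625 of the total in NSD and 11.9% ± 0.403 in SD. Ptprs, a type IIa receptor for heparan and chondroitin sulfate proteoglycans, took 9.30% ± 0.304 and 8.65% ± 0.0987. Ptprn2 took 11.1% ± 0.228 and 10.9% ± 0.830. Ptprn lay above Ptprn2 in both groups without overlap. In NSD, Ptprn2 lay above Ptprs and Ptprt, and the ranges of Ptprs (35.9 and 39.8 CPM per kilobase) and Ptprt (32.6 and 38.3) overlapped. In SD, Ptprt (51.2 and 50.6) lay above both Ptprn2 libraries, the higher of which was at 50.3, and above Ptprs (36.2 and 38.1). This order depended on the length used. With the canonical transcript Ptprn2 was first, at 121 to 140 CPM per kilobase over the libraries against 94.4 to 111 for Ptprn, and its share in NSD was 19.0% in place of 11.1%. With the longest transcript Ptprn lay above Ptprn2 in NSD and overlapped it in SD, and with either length Ptprs came next after both.

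**Figure D1:**
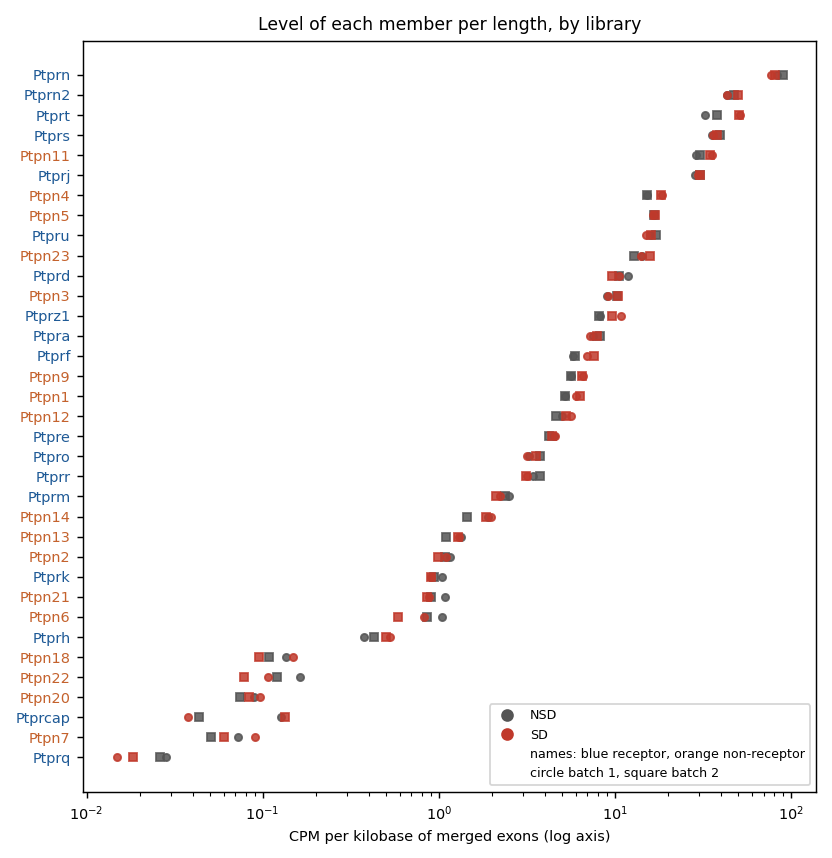
CPM per kilobase of merged exons (log axis) for each of the 35 members, 1 point per library, ordered by the mean over the 4 libraries. With this length Ptprn is highest in every library (with canonical transcript lengths Ptprn2 is), and the 6 members at the bottom lie below 0.2 CPM per kilobase.

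Among non-receptor members, Ptpn11 (the SH2-domain phosphatase SHP2, which works downstream of receptor tyrosine kinases) was highest at 29.1 and 30.4 CPM per kilobase in NSD and 35.7 and 34.8 in SD. Ptpn4 and Ptpn5 came next, and their order differed between the groups. In NSD, Ptpn5 (16.6 and 16.7) lay above Ptpn4 (15.2 and 15.3), and in SD, Ptpn4 (18.5 and 18.4) lay above Ptpn5 (16.4 and 16.8). With the canonical transcript Ptpn5, at 34.3 to 35.1 over the libraries, stood above Ptpn4, at 17.6 to 21.3, in both groups. The summed receptor level was 2.81 ± 0.162 times the summed non-receptor level in NSD and 2.595 ± 0.0566 times in SD (standard deviation over libraries, n = 2). By library the ratio was 2.69 and 2.92 in NSD and 2.56 and 2.64 in SD, with both SD libraries below both NSD libraries. With 2 libraries against 2 no exact permutation test can pass 0.05, so the ratio is given as a description.

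SD was compared with NSD to see which transcripts on the ribosomes of the tagged neurons differ after a second sleep loss. A gene was called where edgeR's quasi-likelihood test gave an adjusted p (Benjamini-Hochberg, over all 22338 genes tested) under 0.05 together with a change of more than 1.2-fold. Ptprt was the only member called, and no member was called lower by edgeR or DESeq2. Over all genes 0.77% were called higher and 2.33% lower, and over the 15551 protein-coding genes 0.952% and 0.54%. At an unadjusted p under 0.05, 7 members had log2 fold changes above 0 and 1, Ptprr, below 0, where 8.86% of protein-coding genes were above and 5.76% below at that p. With the batch number as a block, 4 members were called higher (Ptprt, Ptprf, Ptprz1 and Ptpn4) and 0 lower, beside 3.77% higher and 3.29% lower over the protein-coding genes. DESeq2 called 6 members higher, the same 4 with Ptpn1 and Ptpn11, against 3.91% of protein-coding genes, and 0 lower, against 1.79%.

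Ptprt rose in SD. The NSD libraries held 411.5 and 482.7 CPM and the SD libraries 645.5 and 637.9 CPM. The SD libraries were both above the NSD pair, and the SD pair differed by less than the NSD pair. The fold change was 1.44 (log2 0.52, SE 0.10, 95% interval 0.29 to 0.75; edgeR, adjusted p = 0.040), and the log2 difference was 0.65 in batch 1 and 0.40 in batch 2. Without NSD library 1 the log2 fold change was 0.44 and the call was lost (adjusted p = 0.088). It was also lost with no count filter (0.051), with filterByExpr (0.063) and with protein-coding genes alone (0.050).

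Ptprt is a type IIb receptor, a subfamily of homophilic adhesion molecules whose other members are Ptprk, Ptprm and Ptpru. None of these was called. Ptpru stood at 120.0 and 129.2 CPM in NSD and 114.2 and 121.8 in SD, with overlapping libraries. Ptprm stood at 39.2 and 37.0 CPM in NSD and 34.9 and 33.1 in SD, and Ptprk at 23.0 and 20.7 in NSD and 20.1 and 19.9 in SD; their log2 fold changes were -0.16 (SE 0.072) and -0.13 (SE 0.085), with edgeR adjusted p of 0.27 and 0.49. The ratio of Ptprt to Ptpru in CPM was 3.43 and 3.73 in NSD and 5.66 and 5.24 in SD.

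The type IIa receptors, presynaptic organisers that bind Slitrk, Lrfn and Il1rap family proteins and glypicans, also had unlike values. Ptprf (LAR) stood at 55.4 and 56.9 CPM in NSD and 67.0 and 72.5 in SD, with all SD values above all NSD values. Its fold change was 1.24 (log2 0.31, SE 0.069) with an edgeR adjusted p of 0.053 without the block and 0.0028 with it. Ptprs, the member with the highest CPM in NSD, stood at 612.6 and 679.7 CPM in NSD and 617.2 and 650.4 in SD, and Ptprd at 295.0 and 263.9 in NSD and 262.9 and 241.4 in SD. Their log2 fold changes were -0.028 (95% interval -0.24 to 0.19) and -0.15 (95% interval -0.35 to 0.054). The ratio of Ptprf to Ptprs was 0.0905 and 0.0837 in NSD and 0.109 and 0.111 in SD, and that of Ptprf to Ptprd was 0.188 and 0.216 in NSD and 0.255 and 0.300 in SD.

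Ptprz1, a receptor with a large proteoglycan ectodomain that binds pleiotrophin and contactins and is abundant in glia and their precursors, stood at 154.6 and 153.3 CPM in NSD and 204.2 and 179.8 in SD. All SD values lay above all NSD values, and the SD libraries were further apart. Its fold change was 1.247 (log2 0.32, SE 0.082; edgeR adjusted p = 0.076, and 0.0063 with the block). Without SD library 1 the log2 fold change was 0.22, and without SD library 2 it was 0.42 (adjusted p = 0.012). The 6 oligodendrocyte precursor markers summed to 141 and 122 CPM in NSD and 145 and 134 in SD, and the 8 astrocyte markers to 696 and 619 in NSD and 700 and 663 in SD. Of these 14, edgeR called Gpr17 alone, and only with the block (log2 0.28 and adjusted p = 0.041 in that fit), no defining marker was at 0, and the share of glial RNA in the Ptprz1 difference was not tested. In pooled tissue, fewer cells of a type and less RNA per cell cannot be told apart.

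**Figure D2:**
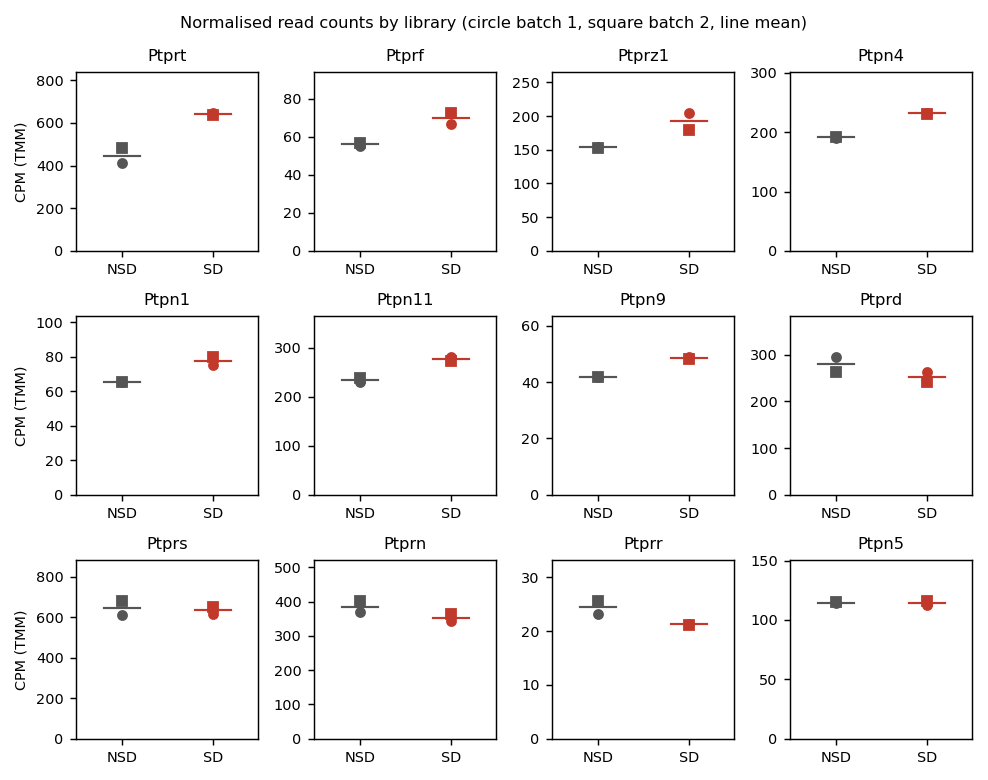
TMM-scaled CPM in every library for 12 members, NSD in grey and SD in red, circle for batch 1, square for batch 2 and a line at the group mean (axes start at 0). In the first 7 panels, Ptprt to Ptpn9, the SD points sit above all NSD points. In Ptprd, Ptprn and Ptprr they sit below all NSD points, and in Ptprs and Ptpn5 the groups overlap. Of all 35 members, 9 lay above and 9 below in this way, beside 26.5% and 20.0% of protein-coding genes.

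None of the other receptors was called. Ptprn stood at 369.2 and 401.4 CPM in NSD and 342.6 and 363.2 in SD, with all SD values below all NSD values but a log2 fold change of -0.13 (SE 0.085, adjusted p = 0.49 by edgeR), while Ptprn2 stood at 387.7 and 422.8 in NSD and 389.1 and 449.4 in SD. Ptprr, a phosphatase with a kinase interaction motif that acts on ERK, stood at 23.3 and 25.6 CPM in NSD and 21.4 and 21.2 in SD. It was the receptor member above 1 CPM with the lowest log2 fold change, -0.20 (SE 0.082, 95% interval -0.39 to -0.011; edgeR unadjusted p = 0.040, adjusted p = 0.23). Ptprm, given above, was second lowest by that measure. Ptpra and Ptpre (type IV), Ptprj and Ptpro (type III) had log2 fold changes of -0.063 to 0.030, and all 4 had overlapping groups. Ptprh (1.568 to 2.202 CPM) had 0.35 with a 95% interval of -0.15 to 0.86. Ptprq, at 0.133 to 0.253 CPM, had -0.72 with an interval of -1.84 to 0.40, which the low counts leave wide. Ptprcap lay between 0.0609 and 0.217 CPM, and its log2 difference was -1.58 in batch 1 and 1.49 in batch 2. Its exons overlap those of Coro1b and Rps6kb2, both with far higher counts, so its reads are uncertain.

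Of the non-receptor members, the FERM and PDZ domain phosphatase Ptpn4 had the largest fold change among those above 1 CPM. It stood at 190.8 and 191.8 CPM in NSD and 232.0 and 231.3 in SD, so that the libraries of a group differed by about 1 CPM. The fold change was 1.21 (log2 0.28, SE 0.071), with an edgeR adjusted p of 0.076 without the block and 0.011 with it. Its relatives Ptpn3, Ptpn13 and Ptpn20 had log2 fold changes of 0.022, 0.082 and 0.14, with adjusted p of 0.94, 0.76 and 0.91, and Ptpn3 stood at 71.1 to 82.4 CPM over the libraries.

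Ptpn1 (PTP1B), the endoplasmic reticulum phosphatase that acts on the insulin and leptin receptors, stood at 65.2 and 65.3 CPM in NSD and 75.4 and 79.8 in SD. Its fold change of 1.19 (log2 0.25, SE 0.066) lay just under the 1.2-fold threshold, with an edgeR adjusted p of 0.079. Ptpn11 stood at 228.9 and 238.8 CPM in NSD and 280.5 and 273.3 in SD, a fold change of 1.18 (log2 0.24, SE 0.075, adjusted p = 0.12). Ptpn9, a Sec14 domain phosphatase of vesicle membranes, stood at 41.8 and 41.8 CPM in NSD and 48.8 and 48.1 in SD, a fold change of 1.16 (log2 0.21, SE 0.064, adjusted p = 0.11). In all 3, as in Ptpn12, every SD value was above every NSD value. With the block their adjusted p fell to 0.0093, 0.025 and 0.029, but the fold change threshold was not met.

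Ptpn5 (STEP), a neuronal phosphatase that acts on NMDA receptor subunits, ERK and Fyn, had nearly the same level in both groups. It stood at 114.4 and 114.8 CPM in NSD and 112.9 and 115.8 in SD, and the 95% interval of its log2 fold change ran from -0.15 to 0.14, which stays inside the 1.2-fold threshold. Among the non-receptor members above 1 CPM, Ptpn6 and Ptpn21 had the lowest log2 fold changes. Ptpn6 (SHP1), best known from blood cells, stood at 3.10 and 2.55 CPM in NSD and 2.44 and 1.74 in SD, and Ptpn21 at 10.2 and 8.50 in NSD and 8.33 and 8.13 in SD. These were log2 fold changes of -0.43 (95% interval -0.98 to 0.11) and -0.19 (95% interval -0.47 to 0.096). Ptpn21 has 247 exon bases in common with Spata7 on the other strand, which held 154% of its count, and Ptpn23 has 53 in common with Scap at 111%; whether counting used the strand is not given in the sources used here. Ptpn22, Ptpn7 and Ptpn18, also known from immune cells, lay below 1.2 CPM in all libraries and had log2 fold changes of -0.61, 0.28 and -0.0073, with edgeR adjusted p of 0.395, 0.807 and 0.996 in that order. Of the remaining members, Ptpn2, Ptpn12, Ptpn14 and Ptpn23, log2 fold changes ran from -0.094 to 0.19.

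The excluded Ptprb stood at 21.5 and 24.1 CPM in NSD and 18.3 and 12.1 in SD (log2 -0.59, edgeR adjusted p = 0.10, and 0.0069 with the block). The 10 endothelial markers, Ptprb among them, all had log2 fold changes below 0, and they summed to 68.0 and 86.8 CPM in NSD and 57.6 and 38.6 in SD. In 7 of the 10 the SD pair was entirely below the NSD pair, beside 20.0% of protein-coding genes. edgeR called none of the 10 without the block and 6 lower with it, beside 3.29%, and DESeq2 called 5 lower, beside 1.79%. Ptprc stood at 4.82 and 3.79 CPM in NSD and 4.44 and 1.95 in SD. The 9 microglia and macrophage markers, which include Ptprc, summed to 107 and 86.2 CPM in NSD and 106 and 80.9 in SD, and the 8 T and B cell markers to 2.28 to 4.05 CPM. None of these immune markers was called. Ptpn6 and Ptpn22, which are known from those cells, were not called either, and the part of such cells in their values was not tested.

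**Figure D3:**
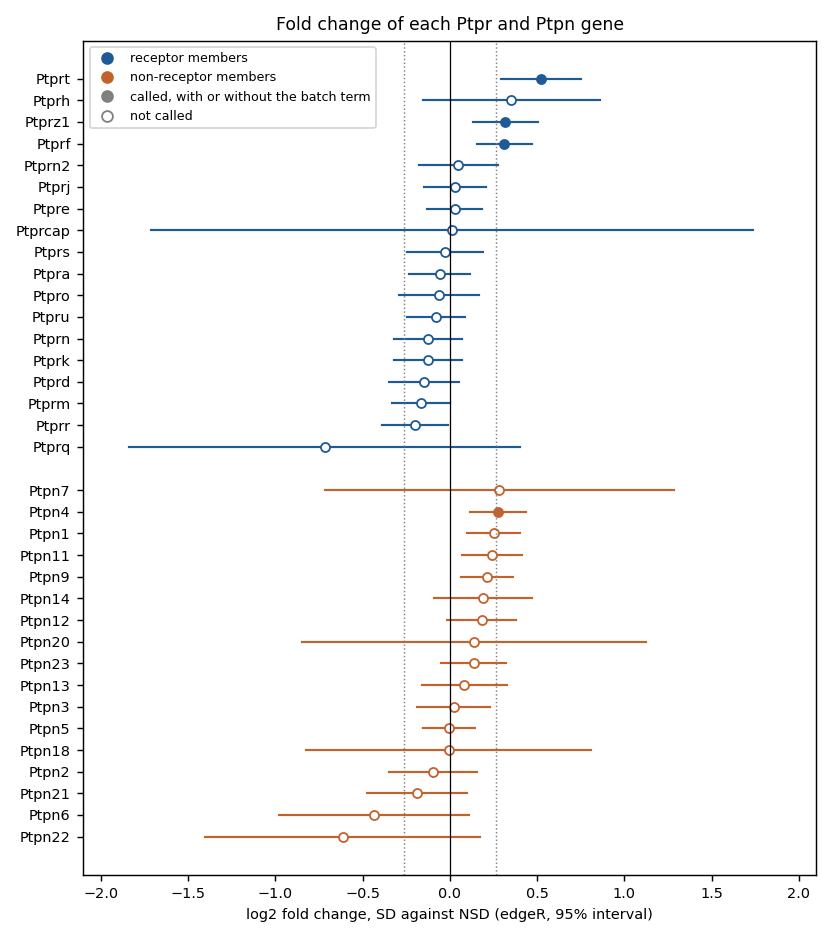
Log2 fold change of SD against NSD (edgeR) with its 95% interval for each member, receptor members in blue and non-receptor members in orange. Dotted lines mark the 1.2-fold threshold, and filled points were called with or without the batch number as a block (Ptprt, Ptprf, Ptprz1 and Ptpn4).

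As classes, the 18 receptor members centred on a median log2 fold change of -0.043 (8 above 0) and the 17 non-receptor members on 0.14 (11 above 0). The median over the protein-coding genes tested was 0.018. The receptor values ran from -0.72 to 0.52, those of the non-receptor members from -0.61 to 0.28. The non-receptor median became 0.24 when NSD library 1 was left out and 0.020 when NSD library 2 was, so its size rested on which NSD library was used. The SD pair was entirely above the NSD pair in 9 members, 4 receptor and 5 non-receptor, and entirely below it in 9, 6 receptor and 3 non-receptor. Over protein-coding genes these shares were 26.5% above and 20.0% below, and 9 of 35 in each direction is near them.

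The partners and substrates of the family were counted from lists of known genes. Over the protein-coding genes tested, 54.2% had log2 fold changes above 0, and edgeR called 0.952% higher and 0.54% lower without the block and 3.77% and 3.29% with it. Of 15 adhesion partners of the type IIa receptors, 1 was called, Gpc4, a glypican that binds Ptprs, which fell from 28.1 and 29.9 CPM in NSD to 21.2 and 22.2 in SD (log2 -0.42, SE 0.078, edgeR adjusted p = 0.040). Of 10 ligands and partners of Ptprz1 and Ptprg, 1 was called, Ptn (pleiotrophin), a secreted ligand of Ptprz1, which fell from 56.1 and 60.1 CPM to 46.4 and 43.8 (log2 -0.37, SE 0.071, edgeR adjusted p = 0.040). In both genes the SD libraries lay below the NSD libraries. The groups overlapped in Ptprs, and in Ptprz1 the SD libraries lay above. Of the 10 Ptprz1 and Ptprg partners, 2 had the SD pair entirely above the NSD pair and 3 entirely below. A link between partners and receptors was not tested. None of the 11 liprins and other intracellular partners, the 13 Src family, focal adhesion and related kinases or the 10 substrates of phosphatases with a kinase interaction motif was called by edgeR with or without the block, or by DESeq2. Of 18 SHP2 adaptors and insulin receptor pathway genes 12 had log2 fold changes above 0 (median 0.11), edgeR called none without the block and Shc3, an adaptor of neurotrophin receptors, with it (log2 0.31 with adjusted p = 0.0050; 0.080 without). DESeq2 called 2 of the 18 higher, Shc3 (adjusted p = 0.0031) and Irs2, an insulin receptor substrate (log2 0.27, adjusted p = 0.0045; 0.096 by edgeR without the block). Of 16 tyrosine phosphatases with other symbols, 10 were above 0 (median 0.11) and none was called without the block by edgeR or DESeq2, while edgeR called Cdc25b lower with it (log2 -0.34 with adjusted p = 0.027; 0.27 without).

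Inside the members' gene spans, 27 other loci of the table were found in 17 members, 1 of them protein-coding. Of the 18 that passed the filter, all non-coding (lncRNAs, pseudogenes and TEC loci, an Ensembl class of transcripts still awaiting experimental evidence), 17 had log2 fold changes below 0, with a median of -1.89, where the 13 host members had a median of 0.027. The SD pair was entirely below the NSD pair in 14 of the 18. Of the 6787 tested genes that are not protein-coding this held for 44.8%, and their median was -0.33. Without the block 3 of the 18 were called lower, where 6.42% of such genes were, and with the block 11 of 18, where 20.3% were. Loci inside other protein-coding genes were not compared, so these shares do not show a trait of the phosphatase genes. Of the 18 loci, 4 are pseudogenes inside 1 member, Ptprd. The 18 loci are faint, none above 2.41 CPM in any library.

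The 3 called without the block lay in Ptpn4, Ptprj and Ptpre. Gm37745, a TEC locus on the strand of Ptpn4, stood at 1.62 and 1.32 CPM in NSD and 0.481 and 0.275 in SD (log2 -1.96, SE 0.37, edgeR adjusted p = 0.040), while Ptpn4 itself was higher in both SD libraries. The lncRNA 4933423P22Rik, opposite to Ptprj, stood at 2.41 and 1.92 CPM in NSD and 0.647 and 0.365 in SD (log2 -2.09), and Ptprj stood at 238.7 and 254.9 in NSD and 247.8 and 256.1 in SD. The lncRNA 5830432E09Rik, opposite to Ptpre, stood at 1.81 and 1.19 CPM in NSD and 0.393 and 0.222 in SD (log2 -2.29), while Ptpre overlapped between groups. The log2 fold changes nearest 0 among the 18 were those of Gm28294 in Ptprn, with 0.064, and Gm42303 in Ptprd, with -0.092. Both overlapped between groups, as did Gm43216 in Ptpn12 and Gm28417 in Ptpn18. Genes that are not protein-coding held 3.505% and 3.184% of the counts in NSD and 3.183% and 2.92% in SD. NSD library 2 and SD library 1 were thus nearly equal. TEC loci of the whole table held 0.274% and 0.210% in NSD and 0.157% and 0.118% in SD. The part of these differences in the values of the 18 loci was not tested.

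**Figure D4:**
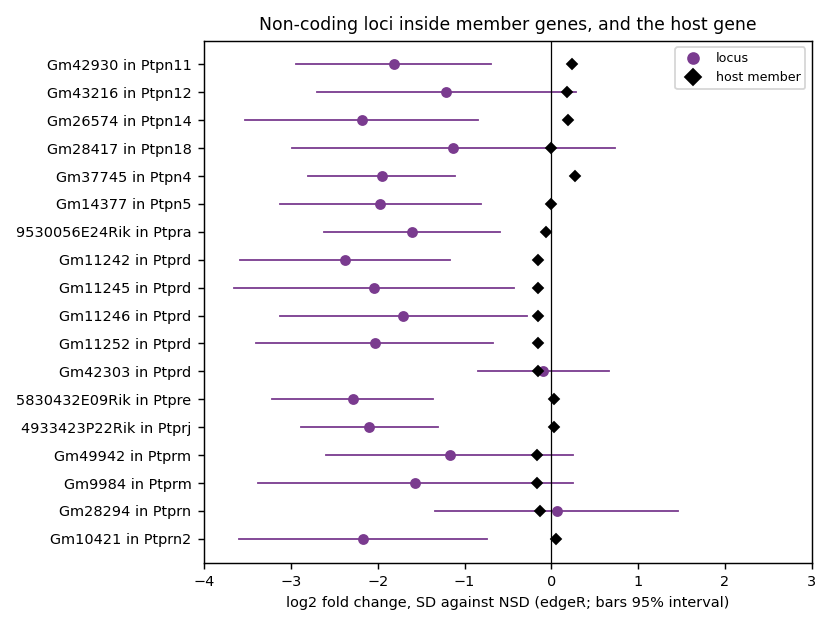
Log2 fold change of SD against NSD (edgeR) for the 18 tested loci that lie inside member genes, with 95% intervals, and for the host member as a diamond. Loci lie to the left of their hosts in all but Gm42303 and Gm28294, which lie to the right of theirs.

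Over members, the length of the gene span was not related to the fold change as a description: Spearman's rho was -0.067 over the 35 members and -0.015 over the 29 above 1 CPM.

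The cAMP response element, TGACGTCA, was searched on both strands of the RefSeq promoter windows, which flank the annotated start of a gene on GRCm38.p6. Windows were given for 30 of the 35 members, and 3 of these held it, Ptpn11, Ptprs and Ptpru, where 3.08% of 13201 genes did. A match says only that these letters are present. Of the 3, Ptpn11 had all SD libraries above all NSD libraries and the other pair overlapped between groups. The AP-1 letters TGANTCA were in 2 of the 30, Ptpre and Ptprh, where 6.83% of genes held them. The 30 bases around the match are shown for Ptpn11 and Ptpru, from RefSeq and placed on GRCm39 by an exact match of the whole window, with the element in capitals; it starts 67 bases before the transcript start in Ptpn11 and 41 before it in Ptpru.
Ptpn11 (chr5:121329509-121329538, minus strand): gcggcgcgcgaTGACGTCAcgcaggcgccg
Ptpru (chr4:131565612-131565641, minus strand): gcccgggggccTGACGTCAgcgccccgctc

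**Figure D5:**
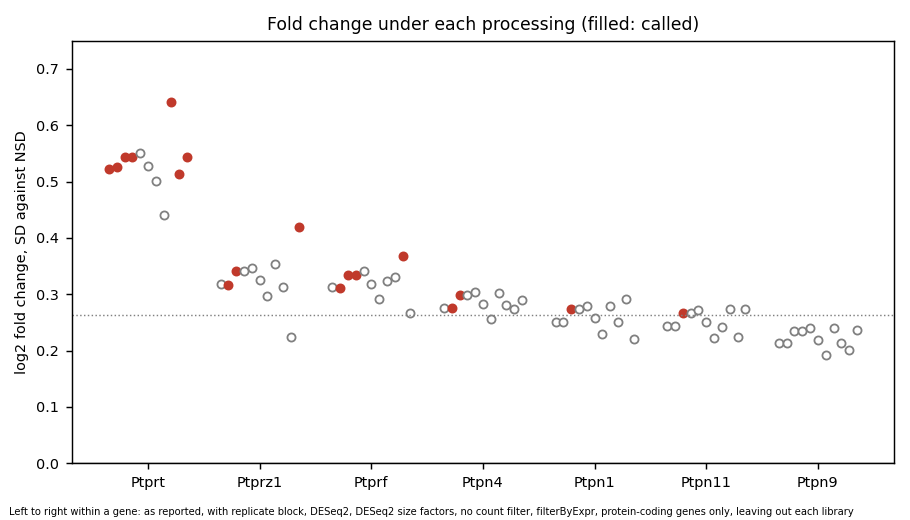
Log2 fold change of SD against NSD for 7 members under each processing, with filled points where the member was called and a dotted line at the 1.2-fold threshold. All values lie above 0 in all 7 members, Ptprt runs from 0.44 to 0.64, and Ptpn9 is called in none.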

How the data were processed

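RNA bound to tagged ribosomes of CA1 neurons was measured in 4 libraries (2 NSD, 2 SD), each a pool of 5 mice. Libraries were made with a stranded total RNA kit. After trimming, the authors used STAR against mm39 and Partek Flow's expectation-maximization step, and deposited its estimated counts by gene with no scaling. Sums by library were 153511705 to 195910235.

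Each estimated count was rounded. The 22338 genes that exceeded 5 counts in all 4 libraries entered edgeR 4.0.16 (R 4.3.3), with TMM scaling (factors 0.965 to 1.02) and a quasi-likelihood model of condition alone. P-values were adjusted over all genes (Benjamini-Hochberg), and a call took an adjusted value under 0.05 plus a change above 1.2-fold. The SE is the log2 fold change divided by the square root of the F statistic, and log2 differences within a batch used a prior count of 2. DESeq2 1.42.0, its size factors in edgeR, no filter, filterByExpr, protein-coding genes only, a batch block and leaving out each library were the alternatives. Replicate numbers in the labels match the batch numbers, so they pair the libraries. Same-numbered deviations from the group means had a correlation of 0.178.

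Lengths, exons and coding sequence came from GENCODE M39 on GRCm39, which had a length for 27962 of the 28193 genes. Promoters came from RefSeq on GRCm38.p6. Amino acid sequences were not used here. The members and lists were chosen with earlier results of these data known. Values were printed by library for members called with or without the block, members the paper names, the 3 highest of each class per length, the 2 lowest of each class by log2 fold change above 1 CPM and 6 members with known roles in neurons. Ratios between relatives, loci inside members and other members were added after their values were seen.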

Additional observations from a re-analysis of the deposited data

How the results depend on the processing

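Ptprt was the only member called, and the number of members called higher, 1 as reported, was 4 with the batch number as a replicate block, 6 with DESeq2, 2 with DESeq2 size factors in edgeR, and 0 with no count filter, with filterByExpr and with protein-coding genes alone. Leaving out 1 library at a time gave 0 to 2. It was 0 for members called lower in every alternative run, and without the fold change threshold the higher count stayed at 1. The non-receptor median of 0.14 ranged from 0.020 to 0.24 when a library was left out. The receptor median, -0.043, ranged from -0.093 to 0.0057 then. The ratio of summed receptor to non-receptor level was 2.81 in NSD and 2.595 in SD with merged exons, 3.43 and 3.15 with the longest transcript, and 3.13 and 2.88 with the canonical transcript, an alternative chosen after seeing the data; it was lower in SD with each length. Of the 10 members highest per length, 9 were among the 10 highest with either other length, but Ptprn2 passed Ptprn with the canonical transcript. Of the 350 single-member values under alternatives, 306 kept their direction and their side of the threshold, and 11 members changed sign in at least 1, none of them called with either sign. With n = 2 pools per group the spread between pools limits the precision, and for the 6 members below 1 CPM in some library low counts do as well.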
